A study of Mus musculus with 78 samples.

Results

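The genes described here encode 10 parts of the contractile and energy apparatus of striated muscle: the muscle creatine kinase Ckm, the actins Acta1 and Actc1, the troponin subunits Tnnt1, Tnnt3, Tnni1, Tnni2 and Tnnc1, the fast myosin light chain Mylpf and the giant protein titin (Ttn). They were chosen by name, 10 of the 21755 protein-coding genes of the annotation. No measured value set the choice, but earlier results of these data were known when it was made. For each gene, every peak within 3 kb of the start of its gene record (the transcription start site, TSS) and every peak in the record itself was taken from 72 ChIP-seq peak lists. The lists come from C2C12, a mouse myoblast line that fuses into multinucleated myotubes, whose clocks were aligned by a serum shock before cells were collected at 12, 16, 20, 24, 28 and 32 h. The 4 profiles of 18 libraries each, 3 biological replicates at every time point, were SUZ12, a core subunit of Polycomb repressive complex 2 (PRC2), H3K27me3, the histone mark that PRC2 deposits, HA-EZH1 and Bio-EZH1. Bio-EZH1 is the EZH1α form of the methyltransferase with an Avi tag that the ligase BirA biotinylates, recovered on streptavidin. The labels give EZH1 as its antibody field and SUZ12 or H3K27me3 as those of the other antibody profiles, except in 2 H3K27me3 samples whose field repeats the sample title. By the methods of the study it was expressed from a retrovirus in cells with a stable knockdown of Ezh1, and the same cells gave the SUZ12 chromatin, so neither profile describes unmodified C2C12. The H3K27me3 lists are marked as wild type, and for HA-EZH1 the labels name the C2C12 line but no modified derivative. The paper describes HA-EZH1 as EZH1α carrying an HA epitope tag, so this profile too comes from cells with an introduced construct. No expression was measured in these files, and 6 input samples without peak lists were not used.

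PRC2 methylates lysine 27 of histone H3, usually over CpG-rich promoters of genes that are kept silent, and EZH1 is the catalytic subunit that predominates in non-dividing cells such as myotubes. Sarcomere genes are the classical products of muscle differentiation: actin and the troponin complex form the thin filament and its calcium switch, myosin light chains sit on the thick filament, and titin spans from Z-disc to M-line as a molecular spring. Creatine kinase restores ATP beside the sarcomere. C2C12 myotubes are known to switch on many of these genes, so peaks at them are occupancy and say nothing by themselves about transcript levels.

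The SUZ12 lists held 21419 to 40379 peaks, the H3K27me3 lists 45120 to 70796, the HA-EZH1 lists 2347 to 16365 and the Bio-EZH1 lists 8539 to 19827, and read depth is not known from the lists. A peak is described by its fold enrichment, the ratio over local background that the peak caller wrote, and by its fold rank, the percent of peaks in the same list with a lower fold. A common promoter peak is one that all 3 replicates of a time point share by at least 1 bp inside the 3 kb window, each with a q-value under 0.01. The HoxD genes, textbook Polycomb targets, had a common promoter peak in 9, 9, 2 and 8 of 9 genes for SUZ12, H3K27me3, HA-EZH1 and Bio-EZH1. Of the 8 skeletal muscle marker genes (Myod1, Myf5, Myog, Myf6, Mef2c, Des, Myh3 and Myh1), the counts were 0, 0, 1 and 0 (Myh1 for HA-EZH1), and of the 3 neural markers (Neurog1, Neurod1 and Gad2) they were 3, 3, 2 and 3. They were 2, 2, 1 and 2 of 4 cardiac, 2, 2, 0 and 1 of 2 liver and 1, 2, 1 and 1 of 3 blood markers.

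The sequences printed here are those in front of the genes with a common promoter peak, and of Tnnc1, which had no peak in its window or record in any list. They are the 250 bases before the RefSeq start (GRCm38.p6, the same assembly as mm10), on the strand of the gene, with every CG dinucleotide in capitals. The last sequence is a stretch of 300 bases inside the strongest Bio-EZH1 peak of Ckm (16 h, replicate 2), on the plus strand, from -1321 to -1022 bp of the Ckm start. It lies in an intron of the neighbouring gene Klc3, beside the summit, and was taken because it is free of exons.
Ckm promoter, chr7:19410844-19411093, plus strand: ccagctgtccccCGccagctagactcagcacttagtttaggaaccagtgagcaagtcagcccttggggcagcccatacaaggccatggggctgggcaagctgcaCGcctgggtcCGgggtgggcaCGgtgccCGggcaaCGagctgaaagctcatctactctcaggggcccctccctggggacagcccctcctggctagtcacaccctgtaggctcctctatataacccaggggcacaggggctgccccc
Acta1 promoter, chr8:123894776-123895025, minus strand: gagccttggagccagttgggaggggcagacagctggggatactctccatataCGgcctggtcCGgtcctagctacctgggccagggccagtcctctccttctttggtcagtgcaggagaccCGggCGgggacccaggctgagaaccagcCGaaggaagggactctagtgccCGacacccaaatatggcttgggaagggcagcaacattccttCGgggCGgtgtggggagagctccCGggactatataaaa
Ttn promoter, chr2:76982548-76982797, minus strand: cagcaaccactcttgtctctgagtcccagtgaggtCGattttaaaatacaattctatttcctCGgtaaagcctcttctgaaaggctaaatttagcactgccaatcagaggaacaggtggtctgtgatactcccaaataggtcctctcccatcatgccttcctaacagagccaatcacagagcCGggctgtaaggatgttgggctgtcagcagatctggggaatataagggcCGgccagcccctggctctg
Tnnc1 promoter, chr14:31208062-31208311, plus strand: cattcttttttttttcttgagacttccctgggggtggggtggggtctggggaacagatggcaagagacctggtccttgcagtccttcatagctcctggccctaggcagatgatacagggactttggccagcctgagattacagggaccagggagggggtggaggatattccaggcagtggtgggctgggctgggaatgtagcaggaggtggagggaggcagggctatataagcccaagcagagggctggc
Ckm peak, chr7:19403455-19403754, plus strand: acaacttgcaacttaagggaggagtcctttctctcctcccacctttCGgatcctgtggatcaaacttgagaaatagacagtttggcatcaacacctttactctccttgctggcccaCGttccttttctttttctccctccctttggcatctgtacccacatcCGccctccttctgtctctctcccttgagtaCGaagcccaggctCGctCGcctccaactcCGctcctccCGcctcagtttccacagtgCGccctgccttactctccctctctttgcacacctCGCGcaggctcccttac
The 4 promoters held 6, 9, 4 and 0 CG in 250 bases, in the order Ckm, Acta1, Ttn, Tnnc1, and the stretch under the Ckm peak held 11 in 300 bases. No peak of any profile overlapped the printed Ckm or Ttn promoter, so their CG counts are not those of sequence under a peak.

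Ckm and Acta1 carried peaks of SUZ12, H3K27me3 and Bio-EZH1, and Ttn carried HA-EZH1 peaks alone at its start. The Ckm peaks lay around the start of its gene record and of the neighbouring gene Klc3, away from the RefSeq start of Ckm. Counted from RefSeq starts, Ckm had no promoter peak, and Acta1 alone kept a common peak of SUZ12, H3K27me3 and Bio-EZH1. A common promoter peak at 1 or more time points was found at Ckm and Acta1 for SUZ12 (2 of 10 members, beside 14.5% of all protein-coding genes), H3K27me3 (2 of 10, beside 24.2%) and Bio-EZH1 (2 of 10, beside 12.0%), and at Ttn for HA-EZH1 (1 of 10, beside 9.85%). A promoter peak in at least 1 library was found at 2 of 10 members for SUZ12 (24.2% of all genes), 2 for H3K27me3 (36.9%), 6 for HA-EZH1 (29.6%) and 2 for Bio-EZH1 (24.9%). Tnnt3, Tnni1, Tnni2 and Tnnc1 had no promoter peak in any of the 72 libraries.

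**Figure D1:**
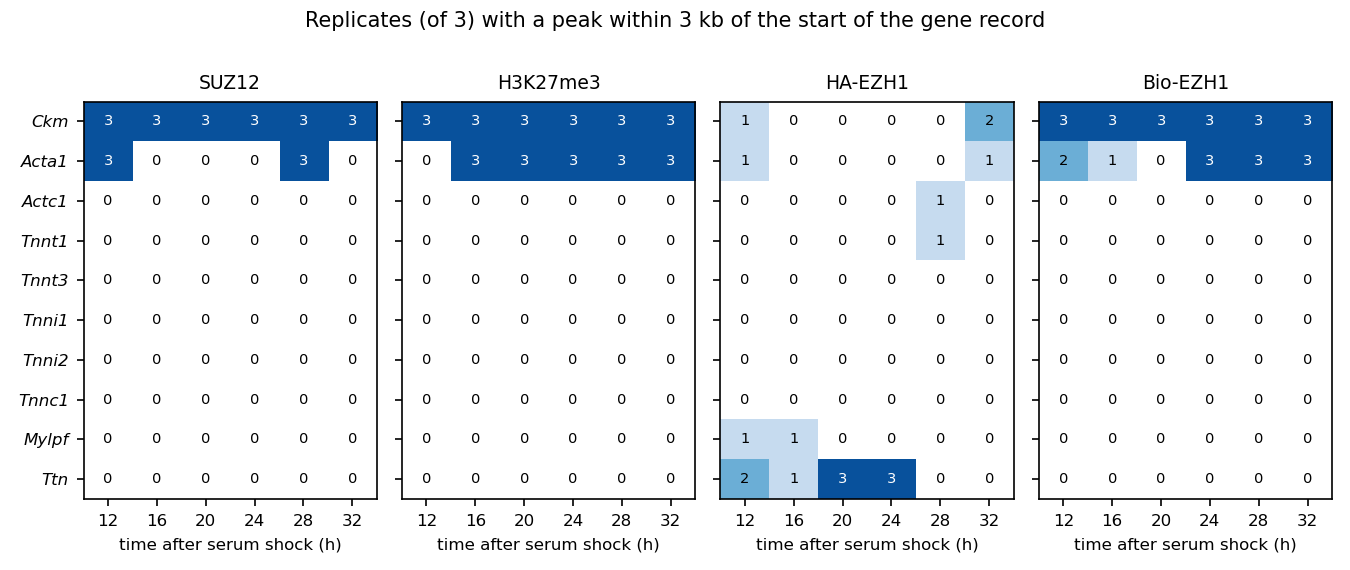
Number of replicates, of 3, with a peak within 3 kb of the start of each gene record (rows) at each time after serum shock in h (columns), 1 panel per profile. Ckm is filled at every time in 3 profiles, Acta1 in part, and Ttn only for HA-EZH1, where all 3 replicates carry a peak at 20 and 24 h.

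Ckm encodes the cytosolic creatine kinase of muscle. Its gene record (chromosome 7, 19404776 to 19422841, plus strand) had a promoter peak in 18 of 18 SUZ12, 18 of 18 H3K27me3 and 18 of 18 Bio-EZH1 libraries, but in 3 of 18 HA-EZH1 libraries. The peak was common at 5 of 6 time points for SUZ12, the exception being 20 h, and at 6 of 6 for H3K27me3 and Bio-EZH1. The difference of HA-EZH1 from Bio-EZH1 (3 against 18 libraries) passed the exact conditional test within time points (two-sided, Benjamini-Hochberg adjusted p = 8.99e-06), a direction called for 27.4% of the genes tested. HA-EZH1 lists are shorter, and the part of list length in this difference was not tested beyond lists cut to equal numbers within a profile, where 1 HA-EZH1 library kept a Ckm peak. Over time the HA-EZH1 covered percent at Ckm did not pass (limma, adjusted p = 0.212), though it did without replicate 3 (adjusted p = 5.69e-05). In that setting it averaged 8.87% at 32 h and was 0 at every other time. The small p-value then rests on zeros without spread and cannot be read as a time effect.

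The peak does not lie at the promoter that RefSeq gives for Ckm. The GENCODE record starts 6318 bp upstream of the RefSeq start, and all 18 Bio-EZH1 peaks lay across that upstream start, with summits from -949 to -730 bp of it (median -854.5). All 18 Bio-EZH1 peaks and all 18 H3K27me3 peaks also covered the start of Klc3, a kinesin light chain gene transcribed in the opposite direction whose record begins at -672 bp from the Ckm start. SUZ12 gave 20 peaks in the window, since the peak was split in 2 at 20 h in replicates 2 and 3, and 16 of them covered the Klc3 start. The 3 HA-EZH1 peaks lay between -1078 and -245 bp, wholly outside the Ckm record and over the Klc3 start. No peak of any profile covered the RefSeq start, and with the window drawn around it Ckm had a promoter peak in 0 of 18 libraries in each of the 4 profiles. Which of the genes the peak belongs to cannot be told apart from peak positions. Klc3 had the same counts as Ckm: 18, 18, 3 and 18 libraries for SUZ12, H3K27me3, HA-EZH1 and Bio-EZH1.

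**Figure D2:**
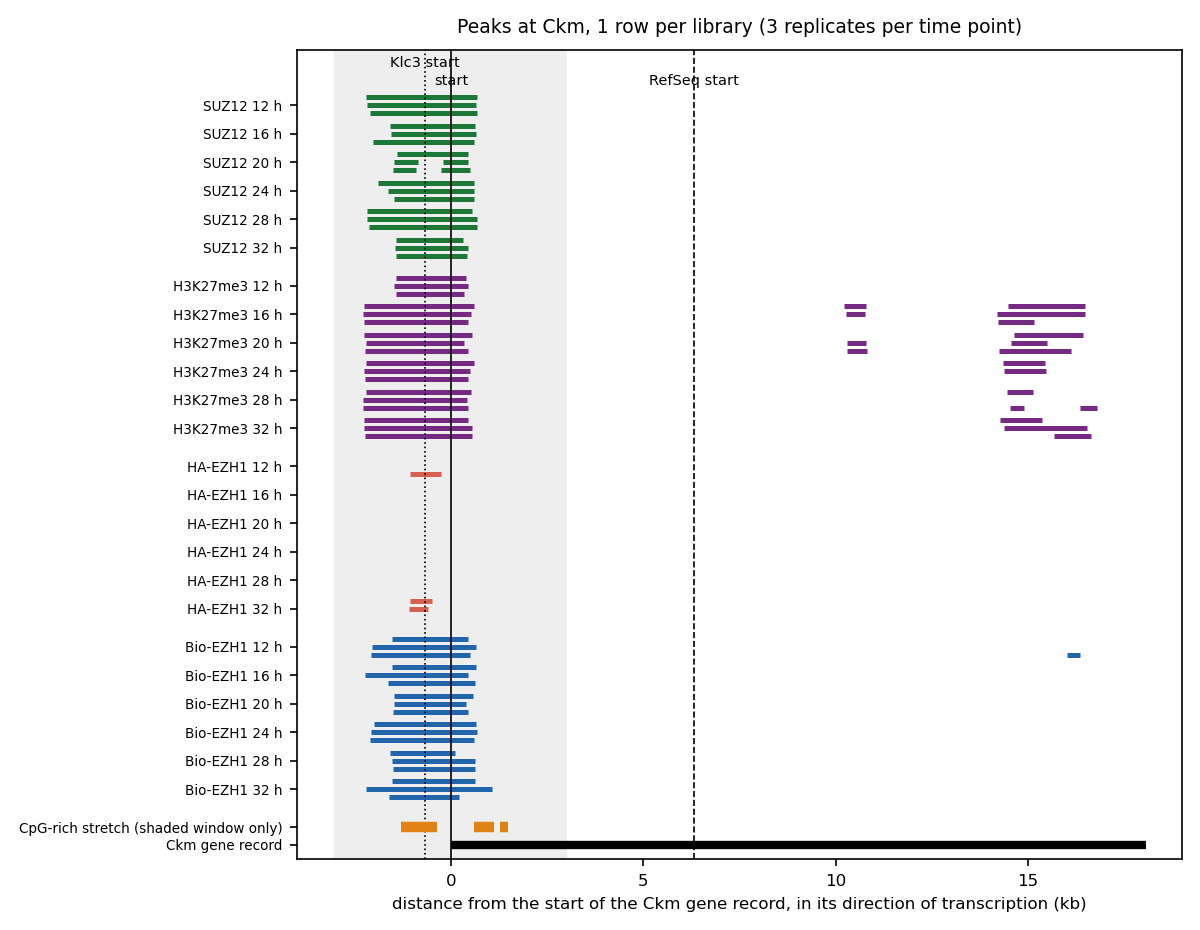
Extent of every peak at Ckm, 1 row per library grouped by profile and time, against distance from the start of the gene record in kb; the shaded band is the 3 kb window, orange bars are CpG-rich stretches inside it, and vertical lines mark the GENCODE start, the RefSeq start and the Klc3 start. Peaks stack over the upstream start and the Klc3 start, none reaches the RefSeq start, and H3K27me3 alone shows repeated peaks farther down the gene from 16 h on.

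The rank of the Ckm peak within its list changed over time for SUZ12 and H3K27me3, and no change passed the test for Bio-EZH1. A rank is set by the other peaks of the list as well as by the peak at Ckm, and list lengths differed between time points, so a changed rank is not by itself a changed occupancy. Bio-EZH1 folds ran from 10.1 to 18.1 (median 12.8) over the 18 libraries, and fold ranks from 93.3% to 97.2% (median 94.8%). By time point the Bio-EZH1 fold averaged 12.1 ± 0.607, 15.6 ± 2.39, 11.3 ± 1.23, 15.7 ± 2.04, 13.1 ± 0.747 and 11.9 ± 1.30 at 12, 16, 20, 24, 28 and 32 h (SD, n = 3 each). All folds of 16 and 24 h lay above all of 12, 20 and 32 h, while 28 h overlapped both. The fold itself was not tested, because lists are not calibrated to each other. Neither the fold rank (limma moderated F test over time, adjusted p = 0.104) nor the percent of the window covered (limma, adjusted p = 0.223) passed the threshold of 0.05. Of the genes tested, 79.5% and 54.2% passed. The rank was tested only for genes with a promoter peak in all 18 libraries of a profile, the covered percent for genes covered in 3 or more.

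SUZ12 was high at Ckm at 12 and 28 h and low at 20 and 32 h. The SUZ12 folds were 9.88, 10.3 and 10.7 at 12 h, and 4.26, 4.20 and 4.42 at 16 h. At 20 h they were 2.03, 1.78 and 1.61, and at 24 h they were 2.72, 2.66 and 2.75. At 28 h they were 18.3, 20.2 and 21.1, and at 32 h they were 2.30, 2.04 and 1.95. Only 20 and 32 h overlapped; every other pair of time points was separated in fold. The SUZ12 fold rank averaged 97.2%, 91.4%, 2.32%, 46.3%, 98.2% and 6.13% in time order, so that the same position was among the strongest peaks of the list at 12 and 28 h and among the weakest at 20 and 32 h (limma F test, adjusted p = 1.86e-12, with 73.3% of the genes tested called). The covered percent of the window changed as well (47.1% ± 1.08 at 12 h and 25.2% ± 5.15 at 20 h, SD, n = 3, limma, adjusted p = 9.94e-06, 72.6% called). At 20 h replicate 3 had its strongest Ckm peak at a q-value of 0.0105, just outside the limit of 0.01 for a common peak.

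The HoxD genes differed in the same libraries. Their median SUZ12 fold averaged 35.8 ± 0.591, 13.9 ± 0.481, 6.82 ± 4.05, 8.99 ± 0.787, 68.7 ± 5.40 and 4.57 ± 0.662 in time order, high at 12 and 28 h and low at 20 and 32 h like that of Ckm. Their median fold rank averaged 76.6% ± 23.6 at 20 h and 81.8% ± 22.6 at 32 h, and between 98.5% and 99.9% at the other times (SD, n = 3). No spike-in factor is in the lists, and the part of these differences between libraries in the Ckm result was not tested.

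**Figure D3:**
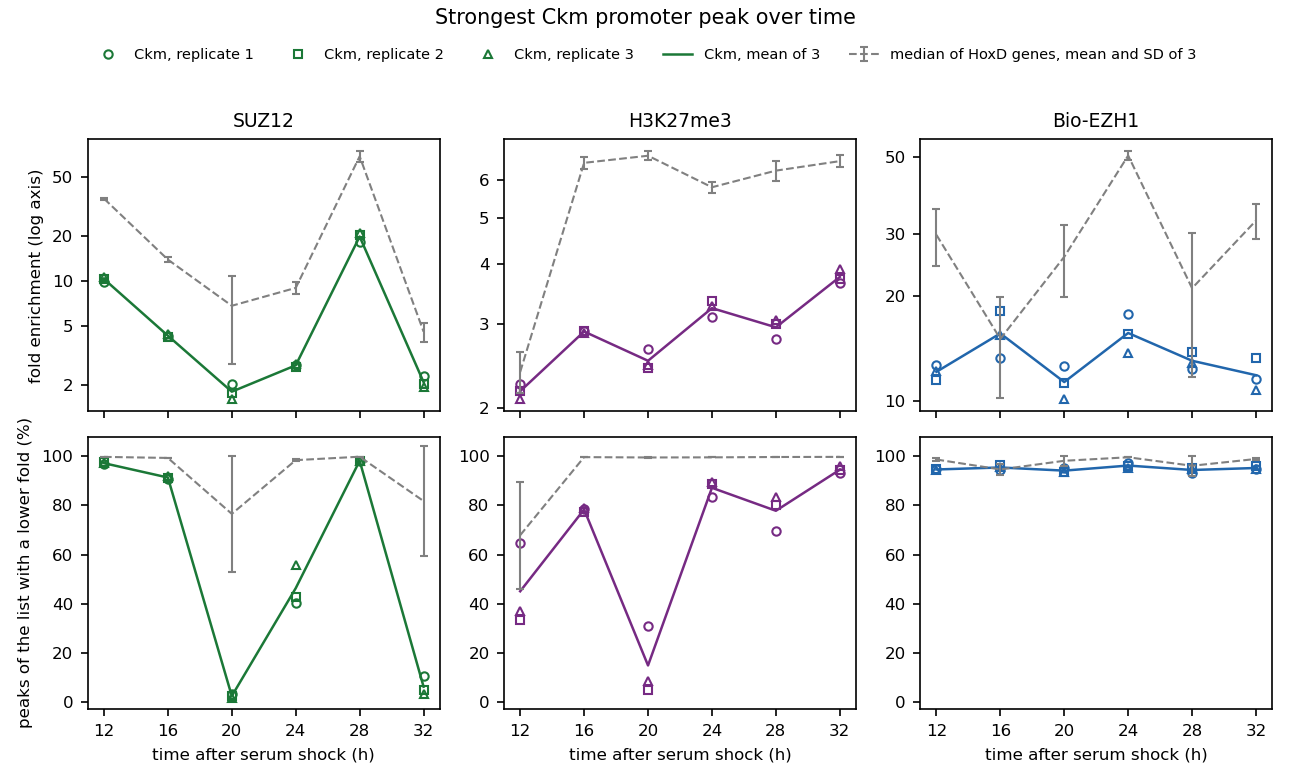
Fold enrichment (top, log axis) and percent of peaks in the same list with a lower fold (bottom) of the strongest Ckm promoter peak against time after serum shock in h, for SUZ12, H3K27me3 and Bio-EZH1; symbols are replicates, the solid line is their mean, and the grey dashed line is the median of the HoxD genes with its mean and SD over 3 replicates. The SUZ12 rank of Ckm drops to 2.32% at 20 h and 6.13% at 32 h, while the Bio-EZH1 rank stays between 93.3% and 97.2%.

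H3K27me3 at Ckm took a different course over time. Its lists hold broad peaks and the others narrow peaks, so its folds are not compared with theirs. The folds averaged 2.17 ± 0.0775, 2.89 ± 0.0174, 2.51 ± 0.127, 3.24 ± 0.129, 2.95 ± 0.141 and 3.76 ± 0.133 in time order (SD, n = 3 each), and the 3 libraries of 32 h were above all others. The fold rank averaged 45.0% at 12 h, 14.8% at 20 h and 94.6% at 32 h (limma F test, adjusted p = 2.22e-06, 86.1% called). Between 12 and 20 h the rank was lower at 20 h although the fold was higher, and the median fold of the whole list was 2.15 to 2.27 at 12 h and 2.84 to 2.90 at 20 h. The covered percent of the window was 30.8% ± 1.36 at 12 h and between 44.6% and 46.6% at later times (adjusted p = 2.11e-07, 66.6% called). With a window of 1 kb the adjusted p was 0.305.

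Beyond the window, H3K27me3 gave 18 further peaks over the Ckm record, in 13 of 18 libraries. They began between 10206 and 16343 bp from the start and all 18 overlapped coding sequence. None was found in the 3 libraries of 12 h, whereas all 3 libraries of 16, 20 and 32 h and 2 of 3 libraries at 24 and 28 h held at least 1. The covered share of the whole Ckm record averaged 8.73% ± 5.39 for H3K27me3, 3.14% ± 0.597 for SUZ12 and 3.16% ± 1.17 for Bio-EZH1 (SD, n = 18). Bio-EZH1 had 1 peak there, in 12 h replicate 3, and SUZ12 and HA-EZH1 had none. Counting only peaks with a q-value under 0.01, the H3K27me3 share was 3.43%, so most of the downstream coverage consisted of weak peaks.

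Acta1 encodes the α-actin of the skeletal muscle thin filament (chromosome 8, 123891769 to 123894751, minus strand, 2983 bp, shorter than the window). It had a promoter peak in 6 SUZ12, 15 H3K27me3, 2 HA-EZH1 and 12 Bio-EZH1 libraries of 18, on different time points. SUZ12 peaks were in 3 of 3 libraries at 12 and 28 h and in none at the other 4 times. H3K27me3 peaks were in 3 of 3 libraries from 16 to 32 h and in none at 12 h, but 2 of 3 at each of 28 and 32 h had a q-value above 0.01 (0.0152 to 0.0276). Bio-EZH1 peaks were in 2, 1, 0, 3, 3 and 3 libraries in time order. The peak was common at 28 h for SUZ12, at 16, 20 and 24 h for H3K27me3, at 24, 28 and 32 h for Bio-EZH1 and at no time for HA-EZH1. Presence differed over time for SUZ12 (exact conditional test, adjusted p = 0.00538, 42.2% of genes called) and H3K27me3 (adjusted p = 0.0194, 41.4% called). For Bio-EZH1 it did not pass (exact p = 0.0590, adjusted p = 0.210). No gene of the 1546 tested passed for Bio-EZH1 by this test (0% called; 363 had an unadjusted p under 0.05), whereas limma on covered shares called 54.2% of 3373.

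With any 1 replicate left out, neither presence call of Acta1 was kept: the adjusted p ran from 0.134 to 0.162 for SUZ12, where the exact p was 0.0303, and from 0.199 to 0.210 for H3K27me3, where it was 0.0909. These are the smallest p-values that 2 replicates a time point can give at such counts. With peaks of a q-value under 0.01 only, the adjusted p for H3K27me3 was 0.0558, with a window of 1 kb it was 0.0537 and with the replicate number as a block it was 0.0656. With SUZ12 lists cut to 21419 peaks the adjusted p for SUZ12 was 0.0580.

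The covered percent of the Acta1 window comes from the same peaks, being 0 where none is present, and it differed over time in 3 profiles. For SUZ12 it averaged 13.4% ± 7.12 at 12 h and 43.2% ± 5.52 at 28 h and was 0 otherwise (SD, n = 3, limma F test, adjusted p = 4.50e-08, 72.6% of genes called). For H3K27me3 it was 0 at 12 h and averaged 61.9% ± 2.36, 55.4% ± 4.66, 52.3% ± 2.70, 45.0% ± 20.2 and 55.0% ± 4.70 from 16 to 32 h (adjusted p = 3.99e-05, 66.6% called). For Bio-EZH1 it averaged 7.47% ± 6.85, 2.33% ± 4.04, 0, 36.1% ± 13.6, 17.3% ± 2.65 and 20.1% ± 2.89 in time order (adjusted p = 0.000896, 54.2% called). The Bio-EZH1 lists of 20 h held 8539 to 9852 peaks against 15046 to 19827 at 24 and 32 h, but those of 28 h, where Acta1 was present in 3 of 3, held 9095 to 11293. The H3K27me3 libraries of 12 h were also those with the lowest HoxD fold (2.38 ± 0.234 at 12 h, from 5.78 to 6.73 later) and the longest lists (63750 to 70796 peaks). The part of these library differences in the Acta1 result was not tested.

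Within Acta1 the Bio-EZH1 peaks sat mostly on the body of the gene, while SUZ12 and H3K27me3 peaks also covered the start (4 of 9 and 14 of 15 peaks). Of 15 Bio-EZH1 peaks, 2 covered the start, and the median peak ran from 1665 to 2668 bp with its summit at 2172 bp, over coding exons in 13 of 15 peaks. With a window of 1 kb, 3 of 18 Bio-EZH1 libraries kept a peak and the covered percent no longer differed over time (adjusted p = 0.316). At 28 h all 3 SUZ12 libraries carried 1 peak over the first exon and another over the 3′ part. SUZ12 peaks of 12 h were weak: their folds were 1.89, 1.73 and 1.79 and their ranks 1.94%, 1.21% and 1.30%, and the peak of replicate 3 was at the start while the others lay downstream, so none was common. At 28 h the SUZ12 folds were 2.82, 3.19 and 3.60, all above the values of 12 h. The H3K27me3 peak spread over nearly the whole record, from a median of -506 to 2864 bp.

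**Figure D4:**
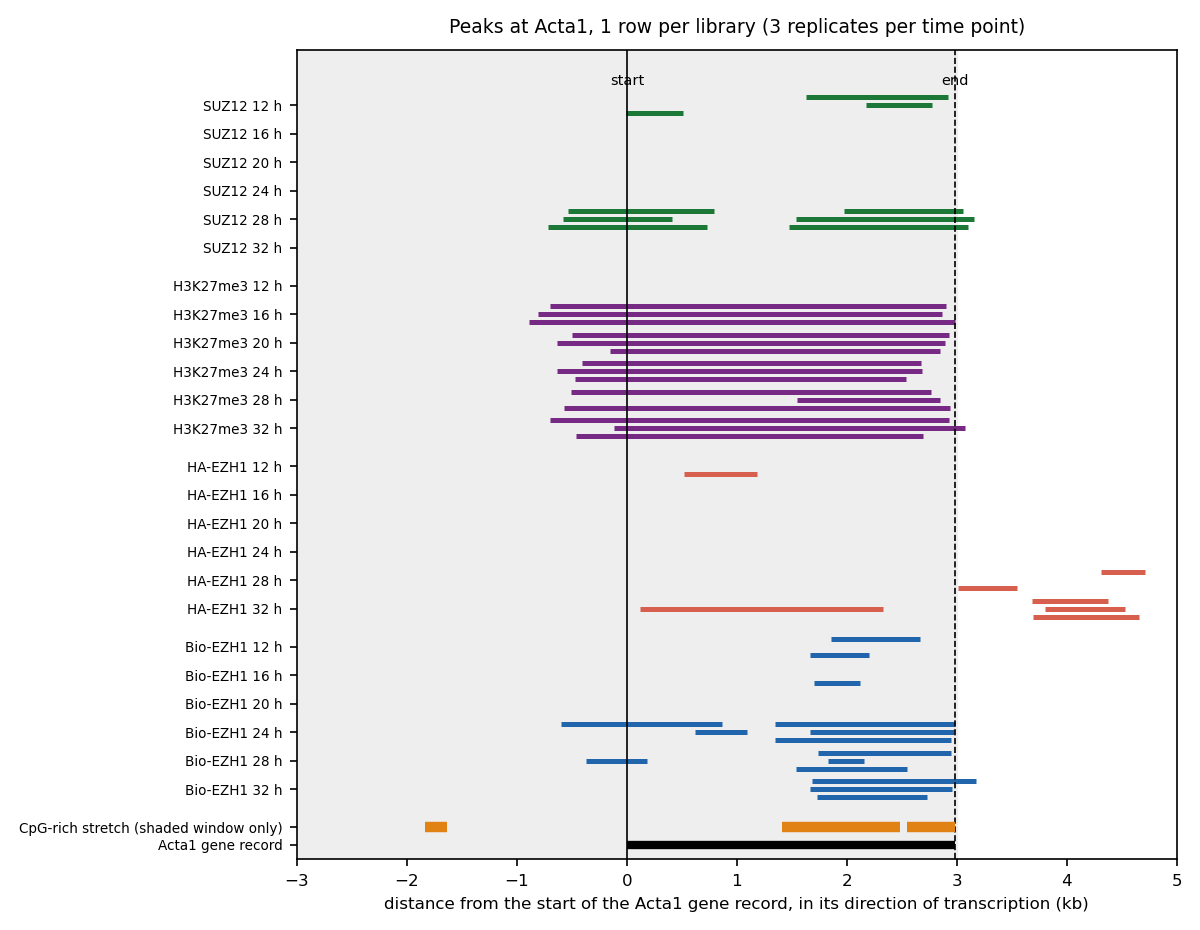
Extent of every peak at Acta1, 1 row per library grouped by profile and time, against distance from the start of the gene record in kb; the shaded band is the 3 kb window, orange bars are CpG-rich stretches and vertical lines mark the start and end of the gene. Bio-EZH1 peaks cluster over the CpG-rich 3′ part at 24, 28 and 32 h, SUZ12 peaks appear at 12 and 28 h, and H3K27me3 covers the gene from 16 h on.

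Bio-EZH1 peaks of Acta1 were moderate where they recurred. The strongest fold was 4.19, 3.62 and 4.47 at 24 h, 4.81, 3.39 and 2.62 at 28 h, and 4.46, 4.55 and 4.18 at 32 h, with ranks of up to 85.6%. The 2 libraries at 12 h had 2.56 and 2.33, and the 1 library at 16 h had 2.51, all below every later value. SUZ12 was present in fewer libraries than Bio-EZH1 (6 against 12), which did not pass the test between profiles (exact p = 0.0263, adjusted p = 0.110), nor did H3K27me3 (15 against 12, adjusted p = 0.512). With a window of 1 kb the H3K27me3 difference passed (adjusted p = 0.000607), and with lists cut to equal lengths it did as well (adjusted p = 0.0314). HA-EZH1 was present in 2 libraries against 12 for Bio-EZH1 (adjusted p = 0.00280), a call lost without replicate 1 (adjusted p = 0.0949) and with the 1 kb window (adjusted p = 1). HA-EZH1 had peaks just beyond the 3′ end, starting between 3010 and 4315 bp from the start, in 2 libraries at 28 h and in 3 of 3 at 32 h, which the 3 kb rule leaves out.

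Actc1, the cardiac α-actin that developing skeletal muscle also makes, had 1 promoter peak in the 72 libraries, for HA-EZH1 at 28 h in replicate 3 (fold 3.37, 1195 to 1508 bp from the start). SUZ12 gave 1 peak each at its 3′ end in replicate 1 of 16, 24 and 28 h, beginning 5410 to 6244 bp from the start. The 2 other replicates of those times held none, so these peaks were not repeated. Beyond the 3′ end, between 8083 and 9178 bp from the start, SUZ12 had a peak in 6 libraries, which the rule leaves out. H3K27me3 had peaks beginning there in 3 of 3 libraries of 12 h (from 8201 to 11150 bp), and Bio-EZH1 in 2 libraries of 32 h (8203 to 8678 bp).

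The troponin genes were nearly empty in the promoter window and the gene record. Tnnt1 and Tnni1 are the slow-muscle troponin T and I, Tnnt3 and Tnni2 their fast counterparts, and Tnnc1 the troponin C shared by slow and cardiac muscle. Tnnt1 had 1 HA-EZH1 peak in its window or record, at 28 h in replicate 3 (fold 2.82, 1665 to 2038 bp), which was lost at a q-value under 0.01. The rule leaves out HA-EZH1 peaks just beyond its 3′ end in replicates 2 and 3 of 16 h (13357 to 14879 bp). It also leaves out upstream H3K27me3 peaks (-5728 to -3110 bp) in replicate 3 of 16 h, replicates 2 and 3 of 24 h and replicate 2 of 28 h. Tnni1 had no promoter peak and 2 HA-EZH1 peaks in 1 library (28 h, replicate 2) between 19635 and 20709 bp. The first of them (19635 to 20064 bp) overlapped a promoter that the RefSeq table gives for this gene, and counting from any annotated transcript start gave Tnni1 1 HA-EZH1 library. Tnnt3, Tnni2 and Tnnc1 had no peak in the promoter window or the gene record in any library of the 4 profiles. These absences are those of peak calls at an unknown depth.

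Mylpf, the regulatory light chain of fast myosin, had HA-EZH1 promoter peaks in 2 libraries, replicate 3 of 12 h (fold 2.34) and of 16 h (fold 2.10), and none in the other 3 profiles. They lay from -675 to -173 bp, outside the Mylpf record and over the start of Tbc1d10b, a gene of the TBC domain family transcribed the other way from -422 bp. Both were lost when HA-EZH1 lists were cut to 2347 peaks, and counting from any transcript start gave 5 libraries in place of 2.

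At its start Ttn carried HA-EZH1 only. Its record is the longest of the 10 (chromosome 2, 76703980 to 76982547, minus strand, 278568 bp), and a HA-EZH1 promoter peak was present in 2, 1, 3, 3, 0 and 0 replicates from 12 to 32 h. No SUZ12, H3K27me3 or Bio-EZH1 library had one. The excess over Bio-EZH1 (9 against 0 libraries) passed the exact test within time points (adjusted p = 0.00177, this direction called for 13.7% of genes), with an adjusted p of 0.0750 without replicate 2. Presence over time did not pass (exact p = 0.0337, adjusted p = 0.0567, 59.0% of genes called), and did with peaks of a q-value under 0.01 (adjusted p = 0.0141).

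The Ttn peak usually began just inside the gene. At 20 h the strongest HA-EZH1 folds were 3.19, 4.52 and 4.53, and at 24 h they were 3.65, 4.01 and 3.57. In replicates 2 and 3 of 20 h and replicates 1 and 3 of 24 h it was an unbroken peak from between 106 and 176 bp to between 2567 and 2666 bp, and no peak covered the start itself. The 2 peaks upstream of the start, in replicates 1 and 3 of 24 h, lay between -2382 and -1723 bp. The covered percent of the window averaged 5.64% ± 4.92, 3.18% ± 5.51, 32.8% ± 15.3, 39.6% ± 16.9, 0 and 0 in time order (SD, n = 3 each, limma F test, adjusted p = 0.000334, 68.7% called), with an adjusted p of 0.0769 without replicate 3. HA-EZH1 lists were longest at the same times, 9124 to 16365 peaks at 20 h and 12433 to 15008 at 24 h against 2347 to 5234 at the other times. With every HA-EZH1 list cut to 2347 peaks, 6 of the 9 libraries kept a Ttn promoter peak.

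Along the rest of the titin gene HA-EZH1 gave 38 more peaks in 11 libraries, of which 25 overlapped coding sequence. The covered share of the record averaged 1.41% ± 0.501 at 20 h and 1.68% ± 0.405 at 24 h, against 0.321% ± 0.114 and 0.335% ± 0.0430 of all protein-coding records in the same libraries (SD, n = 3). At 28 and 32 h the Ttn shares were 0.0528% ± 0.0914 and 0.0786% ± 0.0682, against 0.0777% ± 0.00470 and 0.148% ± 0.0377 of all records. SUZ12 had 5 peaks in the Ttn record in 4 libraries and H3K27me3 had 7 in 3 libraries, all of 12 h and none with a q-value under 0.01.

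**Figure D5:**
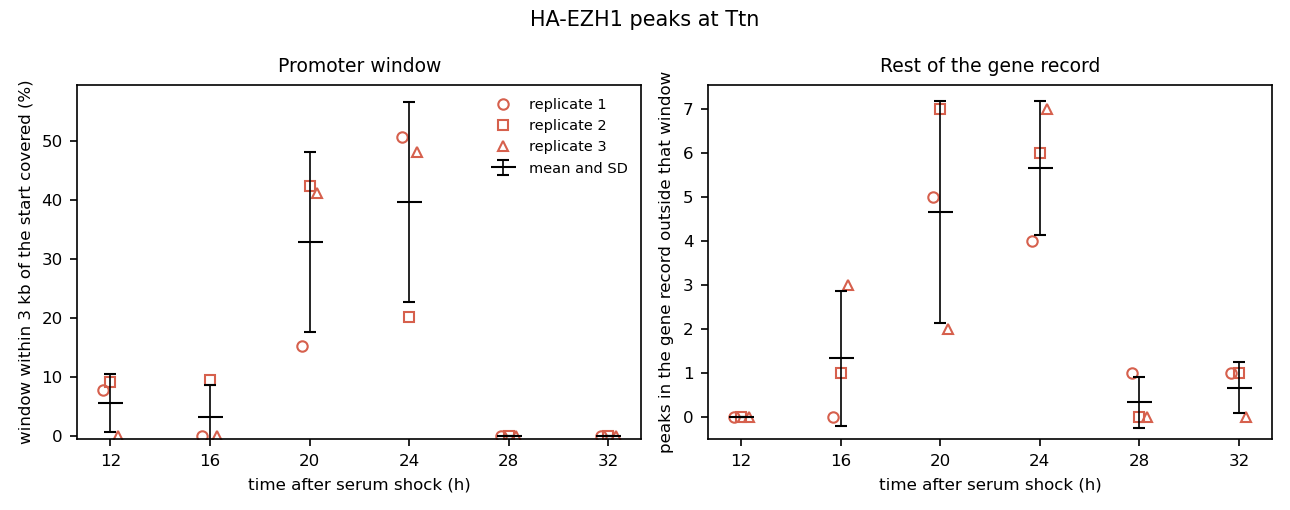
HA-EZH1 at Ttn against time after serum shock in h: percent of the window within 3 kb of the start covered by peaks (left) and number of peaks in the rest of the gene record (right); symbols are replicates and black bars the mean and SD of 3. Both are highest at 20 and 24 h, and the window is empty at 28 and 32 h.

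The members other than Ttn were split into a set called fast (Tnnt3, Tnni2, Mylpf, Acta1 and Ckm) and the slow or cardiac members Tnnt1, Tnni1, Tnnc1 and Actc1. Acta1 and Ckm were placed in the set called fast but are not fast isoforms. For each of SUZ12, H3K27me3 and Bio-EZH1, 2 of 5 members of that set (Acta1 and Ckm) had a common promoter peak, and for HA-EZH1 0. The fast isoforms Tnnt3, Tnni2 and Mylpf had no promoter peak of SUZ12, H3K27me3 or Bio-EZH1 in any library. The slow or cardiac members had 0 of 4 in every profile. The shares of all genes were 14.5%, 24.2%, 12.0% and 9.85% for SUZ12, H3K27me3, Bio-EZH1 and HA-EZH1. The difference between these 2 sets was not tested. In the tests between profiles, HA-EZH1 differed from Bio-EZH1 at 3 of 10 members (Ckm and Acta1 fewer, Ttn more). Only 6 of the 10 were tested, since Tnnt3, Tnni1, Tnni2 and Tnnc1 had no promoter peak in either profile. Of all genes tested, 41.1% were called. SUZ12 differed from Bio-EZH1 at 0 of 10, beside 18.4% of the genes tested (9.29% with more SUZ12 and 9.11% with fewer). H3K27me3 differed at 0 of 10, beside 57.0% (53.8% with more H3K27me3 and 3.17% with fewer), by the exact test, with 1 member (Acta1) at an unadjusted p under 0.05 for SUZ12 and 0 for H3K27me3. A count of 0 here also reflects that Ckm was present in all libraries of both profiles and 8 members in none.

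Other muscle genes were read from lists chosen by function. Among 15 other myosin light chain and thick filament genes, a common promoter peak was found in 7 for SUZ12, 6 for H3K27me3, 5 for HA-EZH1 and 5 for Bio-EZH1. The ventricular light chain genes Myl2 and Myl3 each had SUZ12, H3K27me3 and Bio-EZH1 promoter peaks in 18 of 18 libraries. Obsl1 and Myl1 had Bio-EZH1 peaks in 18 and 10. Of 9 myosin heavy chain genes, 5, 7, 1 and 5 had a common peak in the same order. The fast heavy chains Myh2 and Myh4 were present in 18 of 18 libraries of SUZ12, H3K27me3 and Bio-EZH1, and the cardiac heavy chains Myh6 and Myh7 had Bio-EZH1 peaks in 8 and 4. Myh13 had them in 5, and Myh1 had HA-EZH1 peaks in 6 and none in the other profiles.

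Of 18 energy and calcium handling genes, 4, 3, 2 and 4 had a common peak in that order. Ckmt1, the mitochondrial creatine kinase of many tissues, and Pvalb, a calcium buffer of fast fibres, had SUZ12, H3K27me3 and Bio-EZH1 peaks in 18 of 18 libraries. The brain-type kinase Ckb had them in 4, 8 and 17, and the calcium channel gene Cacna1s in 8, 14 and 18. The calcium pump gene Atp2a2 and the release channel gene Ryr1 had HA-EZH1 peaks in 9 and 3. Among 15 other thin filament genes the counts were 1, 0, 2 and 1 (Nebl for SUZ12 and Bio-EZH1, Acta2 and Actb for HA-EZH1). Of 12 Z-disc genes they were 1, 1, 2 and 0 (Ankrd1 and Cryab for HA-EZH1). Of 11 myogenic regulators they were 1, 2, 1 and 1, with Pax7, the satellite cell factor, in 18 of 18 libraries of SUZ12, H3K27me3 and Bio-EZH1 and in 13 of HA-EZH1. The 12 housekeeping genes had 0, 1, 3 and 0 (Actb and Ywhaz among those for HA-EZH1). The backgrounds for these counts are the 14.5%, 24.2%, 9.85% and 12.0% of all genes given above.

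Genes with the most similar presence were sought over the 72 libraries by the Jaccard index, the share of libraries with a peak at both genes among those with a peak at either. Ckm, present in 57 libraries, had an index of 1 with 4 genes: Kcnh3, Nrarp, Igfbpl1 and its neighbour Klc3. Acta1, present in 35, was most alike to Sh3rf3 and Cilp2 (0.868 each) and Ror1 (0.865). These values are a description over libraries of 4 profiles, which differ in cells, pulldown and list length. Other genes reach into the windows of the members. Gm20388, Nup133 and the antisense gene Gm29773 do so at Acta1, A530058N18Rik and C130080G10Rik at Actc1, Tnni3 at Tnnt1, Prr33 at Tnnt3, Syt8 at Tnni2 and Nisch at Tnnc1.

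Among the members, Acta1 and Ckm had the most CpG-rich sequence near the start, defined as stretches of 200 bases or more with at least 50% GC and an observed over expected CG ratio of at least 0.6. Acta1 had 1704 such bases, Ckm 1676, Tnnc1 1224, Mylpf 1119, Ttn 461, Actc1 280, Tnni1 248, Tnni2 218, Tnnt1 208 and Tnnt3 0. Around the RefSeq start Ckm had 0. Tnnc1 and Mylpf came next without a SUZ12, H3K27me3 or Bio-EZH1 peak. Such a stretch lay within 3 kb of the start in 97.3% of genes with a Bio-EZH1 peak in all 18 libraries, 70.2% of genes with none and 74.7% of all protein-coding genes. For SUZ12 these shares were 89.1% and 73.8%, for H3K27me3 76.5% and 75.1%, and for HA-EZH1 91.2% and 68.2%. At Ckm a stretch of 951 bases from -1298 to -348 bp held the summits of 18 of 18 Bio-EZH1 peaks, and at Acta1 stretches of 1071 and 431 bases, from 1415 to 2485 and from 2552 to 2982 bp, lay in the 3′ part of the gene. Summits fell in a CpG-rich stretch for 12 of 15 Bio-EZH1 peaks of Acta1 and for 63.7% of Bio-EZH1 peaks at all protein-coding promoters. For HA-EZH1 this was 2 of 14 peaks at Ttn beside 82.4% of all promoter peaks, so the summits of the titin peaks lay mostly outside CpG-rich sequence. The unbroken Ttn peaks themselves overlapped CpG-rich stretches from -50 to 208 and from 2296 to 2497 bp.

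In the RefSeq promoter table (300 bases per start, 8 of the 10 members matched), the Klc3 promoter under the Ckm peak held 26 CG with an observed over expected ratio of 0.750, and the Ckm promoter held 7 with 0.226. The other members ranged from 1 CG (Tnnc1) to 12 (Acta1), and the median over 32851 promoters was 7. Muscle motifs were searched on both strands, overlaps allowed. The E-box CANNTG, the site of MyoD family factors, was in the promoters of 8 of 8 members and 72.3% of all promoters. The CArG box of serum response factor was in 2 of 8 (Acta1 and Actc1) and 1.63% of all, the MEF2 motif in 1 of 8 (Ttn) and 3.19%, and TATAAA in 3 of 8 (Acta1, Actc1 and Tnnt1) and 13.6%. A match describes letters and not binding.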

How the data were processed

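ChIP-seq was performed in C2C12 cells at 6 time points with 3 biological replicates for 4 profiles (72 libraries), and groups follow the sample labels. Per the submitters' processing notes and the methods, the authors aligned reads with BWA 0.7.17 to mm10 (BDGP6 for the spike-in), kept filtered pairs with Picard and SAMtools 1.7, and called peaks per library with MACS2 2.2.4. The deposited lists hold fold enrichment (a ratio) and -log10 p-values and q-values per peak, with no counts and no spike-in factor, so depth per sample is unknown and no interval for counting error can be given. H3K27me3 lists are broad peaks, whose q-values reach 0.1, and the others narrow peaks. Labels and methods differ on kit and instrument. The files of the SUZ12 libraries carry a prefix that could stand for streptavidin, and the labels were followed.

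GENCODE M21 gene records (mm10, 53843 genes, 21755 protein-coding) gave the TSS, and 19 mitochondrial peaks were left out. Presence was any overlap with the window of 3 kb on either side. Presence over time was tested exactly (sum of squared replicate counts given the total, genes present in 3 to 15 of 18 libraries), presence between profiles by an exact two-sided conditional test within time points, and the covered percent by a moderated F test in limma 3.58.1 (R 4.3.3), all with Benjamini-Hochberg adjustment over all protein-coding genes tested and a threshold of 0.05. The covered percent was tested for genes covered in at least 3 of 18 libraries of a profile. A limma F test of the same form on the fold rank took only genes with a promoter peak in all 18. This rank test, and the RefSeq start as an alternative, were added after seeing the data. The scripts were tested on simulated data (Python 3.11.15). Alternatives were stricter q-values, a window of 1 kb, summits, other starts, lists of equal length, all annotated genes, a replicate block, other filters, an arcsine scale and leaving out each replicate. RefSeq (GRCm38.p6) gave promoters and genome sequence.

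All members are named, with neighbours within the window, genes of the lists with a common EZH1 peak (up to 6 a list, some not reported here) and the 3 most alike genes of each member present in 18 or more libraries. Members and lists were chosen with earlier results of these data known.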

Additional observations from a re-analysis of the deposited data

Results flagged for a closer look

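Between 12 h and each of 16, 20, 24 and 32 h, the Acta1 promoter peak moved in opposite directions in 2 profiles. SUZ12 had it in 3 of 3 libraries at 12 h and in 0 of 3 at each of those later times, a difference of 3, while H3K27me3 had it in 0 of 3 at 12 h and in 3 of 3 at each of them. The difference between the profiles was not tested. The SUZ12 peaks of 12 h were weak (fold ranks of 1.21% to 1.94%), and the H3K27me3 libraries of 12 h had the lowest HoxD folds of that profile.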

How the results depend on the processing

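Around the RefSeq start (chosen after seeing the data) the members with a common promoter peak numbered 1 for each of SUZ12, H3K27me3 and Bio-EZH1, and the member and library pairs with a promoter peak fell to 6 for SUZ12, 15 for H3K27me3 and 12 for Bio-EZH1, since no window then reaches the Ckm peak. With a window of 1 kb, 1 member had a common Bio-EZH1 peak. Lists of equal length left 9 HA-EZH1 pairs. Without 1 replicate, members with a common HA-EZH1 peak ranged from 1 to 2 (Ckm was added without replicate 3).

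In the main setting, presence over time was called only at Acta1 for SUZ12 and H3K27me3, and at no member for HA-EZH1. The shares of genes called were 42.2%, 41.4% and 59.0%. Under alternatives, members called for presence over time numbered 0 for SUZ12 with lists of equal length. They numbered 0 for H3K27me3 with stricter q-values, a window of 1 kb or the replicate block. For either profile the count was 0 without any 1 replicate (range 0 to 0). With a replicate left out, the exact p of Acta1 was already the smallest possible at such counts, so this loss does not show a dependence on the processing. The count was 1 for HA-EZH1 with stricter q-values (Ttn). H3K27me3 differed from Bio-EZH1 at 1 member (Acta1) with a window of 1 kb and with lists of equal length, and at 0 in the main setting (57.0% of genes called). On covered share, the main setting called Acta1 for Bio-EZH1 (54.2% of genes called) and Ckm and Acta1 for H3K27me3 (66.6%). With a window of 1 kb, 0 members were called on covered share for Bio-EZH1 and 1 for H3K27me3. The shares of all genes called under the alternatives are not given, so those counts have no background beside them.

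Replicate numbers did not pair the libraries: covered shares of same-numbered libraries deviated from the time-point means with a median correlation between -0.00313 and 0.0111. The replicate block gave Acta1 an adjusted p of 0.0656 for H3K27me3 presence over time (0.0194 without the block) and changed no other call among the members. A change of direction was looked for only in the tests between profiles, where no called member reversed under any alternative. Over the summary counts, 177 values under alternatives were within 1.5 times the main count and 24 were not. Over the values of single members, 598 stayed the same, 19 library counts were not within 1.5 times, 16 calls were lost and 4 were gained. Read depth is unknown, so the absence of a peak cannot be read as absence of the protein or mark.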
